A study of Homo sapiens with 6 samples.

Results

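RAB proteins are the largest family of small GTPases. Of the 17911 gene rows of an RNA sequencing table from HL-60 cells, 63 carried a RAB symbol, that is, RAB followed by a number and at most a letter suffix. Another 24 rows whose symbols begin with RAB, such as exchange factors, effectors and GTPase-activating proteins, were not counted as members. HL-60 is a human acute myeloid leukaemia line, labelled here as promyelocyte. The control group held 3 libraries of cells labelled control, with no vehicle named, and the treated group held 3 libraries of cells given 10 uM amiodarone for 24 h. Amiodarone is an antiarrhythmic drug that the series title describes as an activator of the mitochondrial deacetylase SIRT3 and as an inducer of autophagic cell death. No genetic change was labelled in either group.

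Each RAB protein marks a compartment of the membrane traffic system. Bound to GTP, it sits on its membrane through geranylgeranyl lipid tails and recruits tethers, motors and fusion factors; exchange factors switch it on, GTPase-activating proteins switch it off, and GDP dissociation inhibitors return the inactive form to the cytosol. In granulocyte precursors such traffic fills and moves secretory granules, carries material from endosomes to lysosomes and helps autophagosomes form and mature.

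The values are RPKM-like levels, that is, reads per kilobase of gene scaled to sequencing depth, in the deposited scaling. A log2 fold change is the difference of group means of log2(level + 1), amiodarone minus control, and a fold is the ratio of the mean levels. A gene was called when limma's adjusted p (Benjamini-Hochberg, over all tested genes) was under 0.05, and "rose" and "fell" are used of called genes only. Level sums per library ran from 534486 to 574483, and if the unit is RPKM, the spacing of low values corresponds to about 16500000 to 18550000 reads a library. The labels do not say whether the libraries came from separate cultures, so each p-value reflects only how far these libraries spread, which may be technical variation. All 8 promyelocyte markers examined had a mean level of at least 1. Their summed level was 7066 to 7190 in control and 3202 to 3266 in amiodarone libraries, and its part in the RAB results was not tested. Most of that sum was MPO (means of 5962 and 2613); of the 8 markers 6 fell, MYB rose (112.2 to 124.1) and CD33 was not called (91.7 and 95.6). Summed levels of T cell markers (2.43 to 3.49, 1 of 4 with a mean of at least 1) and of epithelial and stromal markers (0.68 to 1.01) were low. Of the B cell markers, CD79A and CD79B had mean levels of 11.0 and 11.2 in controls and 9.26 and 12.9 after amiodarone.

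Most of the RAB repertoire that HL-60 cells express changed after amiodarone, mostly by little and more often upward than downward. Of the 63 members, 45 had a level of at least 1 in at least 3 libraries and were tested. Among these, 37 (82.2%) were called, 24 higher and 13 lower, beside 78.3% of all 11445 tested genes, of which 33.5% were higher and 44.8% lower. The 2 groups of libraries did not overlap for 37 of the 45, beside 79.3% of all tested genes. The share of RAB genes called was thus near that of the transcriptome. Their median log2 fold change was 0.19, against -0.06 over all tested genes, and their median absolute log2 fold change was 0.27, against 0.31. Among the called members, 14 (6 higher and 8 lower) differed by less than 1.2-fold on the tested scale. A test against a change of 1.5-fold called 4 members (8.9%), RAB43, RAB20 and RAB8B higher and RAB7B lower, beside 11.8% of all tested genes. In bulk RNA a lower level in each cell and fewer cells with the transcript cannot be told apart.

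**Figure D1:**
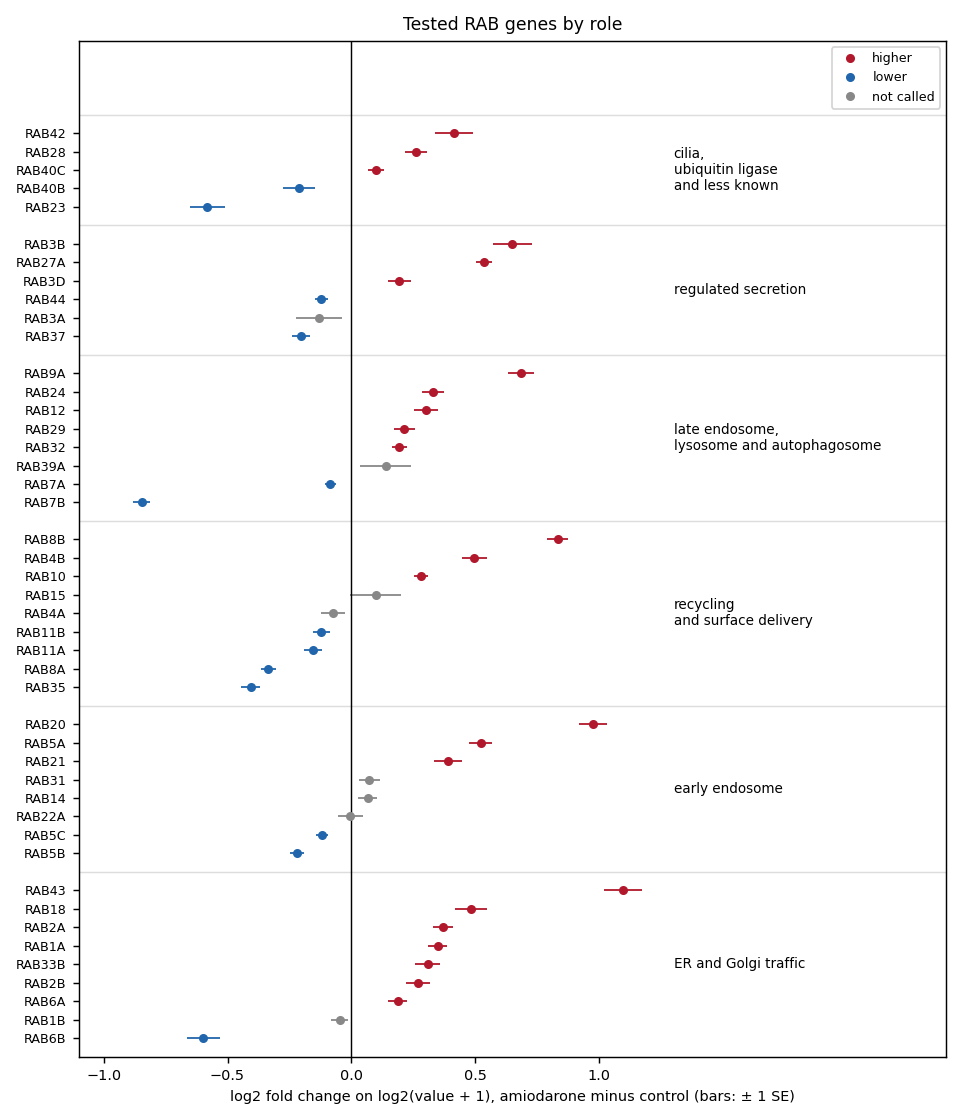
Log2 fold change (amiodarone minus control, on log2(level + 1)) of the 45 tested RAB genes, grouped by role; bars are 1 SE either way, red points were called higher, blue points lower and grey points not called. RAB43 lies farthest to the right at 1.10 and RAB7B farthest to the left at -0.85.

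The 18 members that were not tested had no level above 1.27 in any library, and 16 were below 1 in all 6. They were RAB3C, RAB6C, RAB6D, RAB9B, RAB13, RAB17, RAB19, RAB25, RAB26, RAB27B, RAB30, RAB33A, RAB34, RAB36, RAB38, RAB39B, RAB40AL and RAB41. Groups did not overlap in 4 of them. The share among all untested genes was not computed, so this count has nothing to be set against. RAB3C lay at 0.20, 0.18 and 0.19 in controls and 0.46, 0.41 and 0.41 after amiodarone, and RAB36 at 0.80, 0.63 and 0.60 against 1.09, 1.27 and 0.83. RAB19 reached at most 0.15, and RAB27B was listed at 0 in all 3 controls and at 0.01, 0.01 and 0.03 after amiodarone. RAB38, a melanosome RAB and the close relative of RAB32, lay at 0.34, 0.26 and 0.15 in controls and 0.16, 0.29 and 0.25 after amiodarone, so its groups overlapped.

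The pool of RAB transcripts as a whole differed little between the groups. Summed over the 63 members, the level was 1360.3, 1354.6 and 1371.1 in controls and 1403.6, 1412.9 and 1392.7 after amiodarone, a ratio of means of 1.03. The direction of this sum depends on scaling, since the ratio was 1.06 with median-of-ratios scaling and 0.97 with libraries scaled to equal sums. A small number of genes made up much of the pool. RAB5C, of early endosomes, held 15.6% of the summed level in controls and 13.9% after amiodarone, and RAB7A, of late endosomes, held 12.8% and 11.7%.

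Promoters were examined for E-boxes, the letters CACGTG, which are bound by basic helix-loop-helix factors; the longer palindrome TCACGTGA, which contains an E-box, resembles the element found in many lysosomal genes. Windows from 250 bases before to 50 after each RefSeq start (GRCh38.p14) were available for 50 member genes. An E-box lay in 6 of these (12%), beside 11.5% of 14022 genes of the table, and TCACGTGA in 2 (4.0%), beside 1.8%. Both motifs read the same on the 2 strands. The 6 genes were RAB4A, RAB5A, RAB21, RAB24, RAB29 and RAB31; in RAB29 the motif lay after the start. The other 5 stretches of 30 bases are shown 5′ to 3′ on the strand of the gene because they set rising RAB genes beside ones that were not called; capitals mark the E-box or, in the first pair, TCACGTGA.
RAB5A: cactcgcagggTCACGTGAcatcctgcctc
RAB21: ggcaccggcgcTCACGTGAcccgaggtgtg
RAB24: cggcgcccgcgcCACGTGaccttgcggccc
RAB31: ccggccggcggcCACGTGacccaccgcggc
RAB4A: gcccagcccgcgCACGTGcttccggcgcgc
They lie at chr3:19946964-19946993 (plus strand), chr12:71754831-71754860 (plus), chr5:177303732-177303761 (minus), chr18:9708229-9708258 (plus) and chr1:229270997-229271026 (plus). The capitals begin 122, 21, 30, 60 and 102 bases before the start in that order. Of the 6 genes with an E-box, RAB5A, RAB21, RAB24 and RAB29 rose and RAB31 and RAB4A were not called. With other scalings RAB31 was called higher (median of ratios) and RAB4A lower (equal sums). Of all tested RAB genes 53.3% rose, and of all tested genes 33.5%. The share that rose among all genes with an E-box was not computed. In GENCODE 29 the stretches of RAB4A, RAB5A and RAB31 lie wholly, and that of RAB24 in part, within annotated exons; for RAB31 these are exons of RAB31 itself, which starts farther upstream there than in RefSeq. Of the other motifs searched on both strands, TGANTCA, the AP-1 site, lay in 6 member genes (12%, beside 7.8% of all genes). TGATGNAA, the composite ATF4 and CEBP site, lay in 1 (2.0%, beside 3.4%), and TGACNNNGC, the core of the antioxidant element, in 12 (24.0%, beside 18.5%). Matches are a description of letters, not of binding.

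RAB genes of the endoplasmic reticulum (ER) and Golgi mostly rose, with 7 of 9 tested higher, 1 lower (RAB6B) and 1 not called (RAB1B); the shares over all tested genes were 33.5% higher and 44.8% lower. The median log2 fold change of the role was 0.31, and 0.17 with no filter on low levels. RAB43, which acts in traffic between the ER and the Golgi, lay at 3.08, 2.43 and 3.05 in controls and 6.82, 7.07 and 7.77 after amiodarone. Each treated library was above every control, a 2.53-fold difference of means (log2 fold change 1.10, SE 0.08, limma adjusted p = 2.17e-07). The gene lies on the minus strand of chr3:129087569-129122801 (GENCODE 29, GRCh38). Of its exonic bases, 79.3% are shared on the same strand with the read-through gene ISY1-RAB43, so the reads of both are uncertain. ISY1-RAB43 itself rose from 13.4 ± 0.166 (SD, n = 3) to 18.2 ± 1.03 (SD, n = 3), while the upstream gene ISY1 fell from a mean of 14.4 to 11.3.

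Other ER and Golgi members rose by smaller amounts. RAB18, known from contacts of the ER with lipid droplets, stood at 3.16, 2.81 and 2.82 in controls and 4.45, 4.20 and 4.82 after amiodarone. That is 1.53-fold (log2 fold change 0.48, SE 0.07, limma adjusted p = 4.51e-05). RAB33B, which binds the autophagy protein ATG16L1, rose 1.27-fold from 6.68, 6.52 and 6.64 to 8.44, 8.80 and 8.03 (limma adjusted p = 1.55e-04). RAB2A and RAB2B, which tether vesicles between the ER and the Golgi and take part in fusion with lysosomes, rose 1.31-fold and 1.22-fold, and RAB6A, of retrograde traffic within the Golgi, 1.14-fold.

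RAB1A and RAB1B, the near-identical pair that drives ER to Golgi transport and helps autophagosomes form, did not change alike. RAB1A lay at 31.15, 28.91 and 30.08 in controls and 37.09, 39.85 and 38.57 after amiodarone, and rose 1.28-fold (log2 fold change 0.35, SE 0.04, limma adjusted p = 8.52e-06). RAB1B, the most abundant member of this role, lay at 101.44, 101.85 and 102.34 in controls and 102.50, 100.39 and 93.16 after amiodarone. Its groups overlapped and it was not called (log2 fold change -0.05, limma adjusted p = 0.232), although scaling to equal sums called it lower (adjusted p = 0.00239). Part of the exons of RAB1A (22.9%) lies opposite CEP68, and of RAB1B (29.3%) opposite an antisense gene. RAB6B, the paralogue of RAB6A best known from neurons, was the one member of this role that fell. It went from 2.70, 2.56 and 2.82 to 1.51, 1.48 and 1.33, a 1.87-fold difference (log2 fold change -0.60, SE 0.07, limma adjusted p = 8.63e-06).

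**Figure D2:**
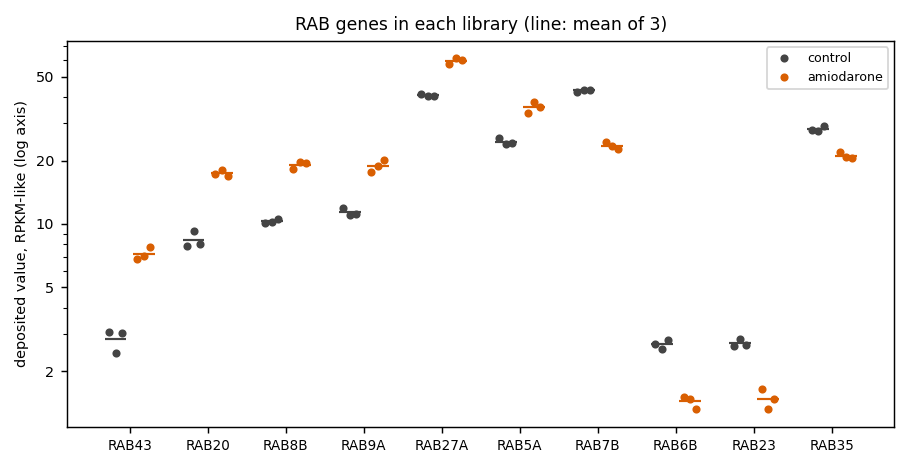
Level of 10 RAB genes in each of the 6 libraries (RPKM-like, log axis), with control points in grey, amiodarone points in orange and lines at the mean of 3. For each of the 10 genes shown the control and amiodarone points do not overlap; RAB7B, RAB6B, RAB23 and RAB35 are lower after amiodarone and the other 6 are higher.

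Early endosome genes split by member. Of 8 tested, 3 rose (37.5%), 2 fell (25.0%) and 3 were not called, beside 33.5% higher and 44.8% lower of all tested genes. The median log2 fold change of the role was 0.07, which scaling to equal sums turned to -0.02. RAB20, which acts in endosome and phagosome maturation, rose the most of this role. Its level was 7.90, 9.26 and 8.05 in controls and 17.24, 18.12 and 16.95 after amiodarone, a 2.08-fold difference with no overlap (log2 fold change 0.97, SE 0.06, limma adjusted p = 5.18e-08). RAB20 lies on the minus strand of chr13:110523066-110561733. RAB21, known from integrin traffic, rose 1.36-fold from 6.0, 5.80 and 6.13 to 7.46, 8.43 and 8.53 (limma adjusted p = 8.62e-05).

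The 3 RAB5 genes encode closely related GTPases that fuse early endosomes, and they went in different directions. RAB5A, the least abundant, had levels of 25.61, 23.98 and 24.12 in controls and 33.59, 37.95 and 35.73 after amiodarone. It rose 1.46-fold (log2 fold change 0.52, SE 0.05, limma adjusted p = 1.34e-06). RAB5B fell from 54.75, 53.74 and 55.61 to 46.88, 46.25 and 47.29 (log2 fold change -0.22, SE 0.03, limma adjusted p = 2.62e-05). RAB5C, the RAB gene of the highest level, fell from 211.55, 212.76 and 212.14 to 199.48, 197.00 and 188.93 (log2 fold change -0.12, SE 0.03, limma adjusted p = 0.00117). In all 3 genes the groups were apart, but the decrease of RAB5C was only 1.09-fold. Of the exonic bases of RAB5C, 28.8% are shared with another gene of the same strand. RAB14, RAB22A and RAB31, of traffic between the Golgi and endosomes, had log2 fold changes from -0.004 to 0.07 and were not called; with median-of-ratios scaling RAB14 and RAB31 were called higher (adjusted p = 0.0328 and 0.0319).

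Among the 9 tested genes of recycling and surface delivery there were 3 increases (33.3%) and 4 decreases (44.4%), near the shares over all tested genes (33.5% and 44.8%). The median log2 fold change was -0.08, and -0.16 with libraries scaled to equal sums. The paralogues RAB8A and RAB8B, which carry vesicles to the plasma membrane, moved in opposite directions. RAB8B lay at 10.11, 10.20 and 10.53 in controls and 18.16, 19.58 and 19.54 after amiodarone. This was a 1.86-fold rise (log2 fold change 0.83, SE 0.04, limma adjusted p = 1.82e-08). RAB8A, the more abundant, went from 63.33, 63.41 and 63.75 to 51.69, 49.29 and 49.50, a 1.27-fold fall with no overlap (log2 fold change -0.34, SE 0.03, limma adjusted p = 1.11e-06). RAB8B lies on chr15:63189469-63267782 and RAB8A on chr19:16111629-16134234, where 37.8% of its exonic bases lie opposite an antisense gene.

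RAB10, another surface delivery RAB and the most abundant gene of this role, rose from 79.06, 79.21 and 79.08 to 93.64, 98.22 and 97.00, that is 1.22-fold (limma adjusted p = 2.56e-06). RAB35, of fast endosomal recycling, fell from 27.88, 27.59 and 29.23 to 21.97, 20.76 and 20.48, a 1.34-fold difference (log2 fold change -0.41, SE 0.04, limma adjusted p = 2.81e-06). RAB11A, of the recycling endosome, fell 1.12-fold from 21.33, 21.47 and 21.46 to 18.63, 19.21 and 19.60 (limma adjusted p = 0.00188). These 3 genes had separate groups. Its paralogue RAB11B lay at 51.99, 54.08 and 56.41 in controls and 50.99, 48.47 and 49.60 after amiodarone, with 1 unit between the nearest libraries. That decrease was called (log2 fold change -0.12, limma adjusted p = 0.0087), and with median-of-ratios scaling it was not (adjusted p = 0.06).

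RAB4A and RAB4B, of rapid recycling from early endosomes, also parted. RAB4B rose 1.43-fold from 20.41, 19.90 and 21.87 to 31.75, 27.87 and 29.29 (log2 fold change 0.49, SE 0.05, limma adjusted p = 4.73e-06). Read-through genes share 27.4% and 25.7% of its exonic bases on the same strand. RAB4A was at 21.13, 21.16 and 20.81 in controls and 18.43, 21.28 and 20.10 after amiodarone, with overlapping groups and no call (limma adjusted p = 0.17). Without amiodarone library 2 it was called lower (adjusted p = 0.0346), as it was when libraries were scaled to equal sums (0.0106). RAB15 lay near the minimum level, with means of 0.913 and 1.04, and was not called.

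In the late endosome, lysosome and autophagosome role, 5 of 8 tested genes rose and 2 fell, beside 33.5% and 44.8% of all tested genes. The median log2 fold change over the 8 was 0.20, and 0.12 with libraries scaled to equal sums. The pair that fell were RAB7A and RAB7B. RAB7B, which carries cargo from late endosomes back to the Golgi and is known from myeloid cells, lay at 42.36, 43.37 and 43.37 in controls and at 24.45, 23.33 and 22.74 after amiodarone. Its 1.83-fold fall was the largest decrease of the family on the tested scale (log2 fold change -0.85, SE 0.04, limma adjusted p = 3.18e-09). The gene lies on the minus strand of chr1:205976740-206003461. RAB7A, which drives fusion of late endosomes and autophagosomes with lysosomes, went from 172.68, 174.08 and 177.29 to 164.50, 165.68 and 163.66. The groups were apart, but the difference was 1.06-fold (log2 fold change -0.09, SE 0.02, limma adjusted p = 0.00505). Its size and call hung on scaling, with -0.05 and adjusted p = 0.0926 by median of ratios and -0.18 and 2.49e-05 with equal sums.

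RAB9A, which returns mannose-6-phosphate receptors from late endosomes to the Golgi and takes part in non-canonical autophagy, rose the most of this role. Its level was 11.87, 11.01 and 11.16 in controls and 17.58, 18.81 and 20.12 after amiodarone, a 1.66-fold difference without overlap (log2 fold change 0.68, SE 0.05, limma adjusted p = 4.21e-07). The gene is on chrX:13689125-13710506. RAB24, an atypical RAB linked to the clearance of autophagosomes, rose 1.27-fold from 19.08, 18.61 and 20.57 to 25.73, 23.88 and 24.29 (limma adjusted p = 4.81e-05). It shares 44.8% of its exonic bases on the same strand with MXD3, which fell from a mean of 8.58 to 5.06.

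RAB32, of lysosome-related organelles and mitochondria, rose 1.15-fold from 32.57, 33.06 and 33.41 to 37.55, 38.65 and 37.49 (log2 fold change 0.19, limma adjusted p = 1.31e-04). With libraries scaled to equal sums its log2 fold change was 0.11, still called. RAB12, of recycling endosomes and lysosomes, rose 1.25-fold, and RAB29, known as a recruiter of the kinase LRRK2 to membranes, rose 1.18-fold. RAB39A, of phagosomes, had means of 1.17 and 1.39 and was not called (limma adjusted p = 0.239), although without amiodarone library 3 it was called higher (adjusted p = 0.0411).

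Genes of regulated secretion again split, with 3 of 6 tested higher, 2 lower and 1 not called. Among all tested genes, 33.5% were higher and 44.8% lower. The median log2 fold change of the role, 0.04, turned negative under a higher minimum level and with equal sums. RAB27A, which docks secretory granules at the plasma membrane in leukocytes and is mutated in Griscelli syndrome, had the highest mean over the 6 libraries (50.2, beside 48.6 for RAB44), although in controls RAB44 was above it (means of 50.7 and 40.8). The level of RAB27A went from 41.51, 40.33 and 40.49 to 57.36, 61.13 and 60.20, a 1.46-fold rise (log2 fold change 0.53, SE 0.03, limma adjusted p = 5.85e-08). RAB27A lies on the minus strand of chr15:55202966-55319113. Its paralogue RAB27B was listed at or near 0 throughout, so nearly all RAB27 transcript counted was RAB27A.

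Of the other members of this role, RAB37 and RAB44 fell and RAB3B and RAB3D rose. RAB37, known from mast cell granules, fell 1.16-fold from 33.21, 32.07 and 33.31 to 27.73, 28.03 and 29.45 (log2 fold change -0.20, limma adjusted p = 2.62e-04). RAB44, a large RAB with additional domains, fell from 50.33, 50.67 and 51.08 to 46.46, 46.36 and 46.69 (log2 fold change -0.12, limma adjusted p = 0.00149). Both had groups that did not overlap. RAB3B, of exocytosis in secretory cells, rose from 0.82, 1.04 and 0.72 to 1.97, 1.89 and 1.87, that is 2.22-fold (log2 fold change 0.65, SE 0.08, limma adjusted p = 1.89e-05). All 3 treated libraries but only 1 control reached the minimum level of 1, so RAB3B was tested mainly because of the group in which it was high. Its log2 fold change was 1.08 with a pseudocount of 0.1. RAB3D, the granule RAB of many secretory cells, rose 1.16-fold, a call lost with equal sums (adjusted p = 0.0552). RAB3A, of synaptic vesicles, was not called; its controls spread from 5.90 to 8.38, and without control library 1 it was called lower (adjusted p = 0.00472).

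The last role gathers cilia, ubiquitin ligase and less known members, of which 3 of 5 tested rose (60.0%) and 2 fell (40.0%). Over all tested genes 33.5% were higher and 44.8% lower. RAB23, a negative regulator of Hedgehog signalling, fell from 2.63, 2.85 and 2.65 to 1.65, 1.32 and 1.48, a 1.83-fold difference with separate groups (log2 fold change -0.58, SE 0.07, limma adjusted p = 1.93e-05). Of its exonic bases, 57.7% lie opposite BAG2, which fell as well, from a mean of 9.01 to 6.86. RAB42 rose 1.45-fold from 2.97, 2.39 and 2.71 to 3.69, 4.32 and 3.72 (limma adjusted p = 4.96e-04), and RAB28, of photoreceptors and cilia, rose 1.21-fold.

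RAB40B and RAB40C carry a SOCS box that joins them to ubiquitin ligases. RAB40C, the most abundant of this role, went from 28.24, 28.46 and 28.74 to 31.37, 30.85 and 29.60 (log2 fold change 0.10, limma adjusted p = 0.0173). RAB40B fell from 1.95, 1.96 and 2.13 to 1.55, 1.66 and 1.59 (log2 fold change -0.21, limma adjusted p = 0.0111). Both had separate groups but calls that did not hold everywhere. RAB40B was not called without control library 3 (adjusted p = 0.0525). RAB40C was not called with equal sums (log2 fold change 0.01, adjusted p = 0.753), nor without control library 1, amiodarone library 1 or amiodarone library 2 (0.0507, 0.0535 and 0.0502).

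Since paralogues share effectors, the balance within each paralogue group was computed as a member's percentage of the group's summed level, which does not depend on the scaling of a library. There were 13 such shares in 11 groups, and in 10 of them (76.9%) the 3 amiodarone libraries did not overlap the 3 controls, near the 79.3% of all tested genes whose levels did not overlap. The 3 shares of the RAB5 group depend on each other. Another 4 groups (RAB9, RAB27, RAB32 with RAB38, and RAB33) were left out because 1 of their members was under the minimum level. Each of the 10 had the smallest p that an exact two-sided permutation test of 3 against 3 can give, 0.10 (0.130 after Benjamini-Hochberg adjustment over the 13), so the design could not reach 0.05. RAB8A made up 86.23%, 86.14% and 85.82% of the RAB8 pair in controls and 74.00%, 71.57% and 71.70% after amiodarone, the widest shift. RAB4A went from 50.4% ± 1.45 (SD, n = 3) of the RAB4 pair to 40.2% ± 3.31. RAB7A went from 80.30%, 80.06% and 80.35% of the RAB7 pair to 87.06%, 87.66% and 87.80%, while both members of the pair fell. RAB1A gained in the RAB1 pair, from 22.8% ± 0.694 (SD, n = 3) to 28.1% ± 1.38.

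RAB5A took 8.77%, 8.26% and 8.26% of the RAB5 sum in controls and 12%, 13.50% and 13.14% after amiodarone, while RAB5C stayed the main form at 72.8% and 70.3%. RAB6A rose from 91.7% to 95.9% of its pair, and RAB2A from 54.7% to 56.4%. RAB40B fell from 6.60% to 4.97%. The groups overlapped for RAB11A in the RAB11 pair (28.4% and 27.8%), RAB22A beside RAB31 (26.5% and 25.5%) and RAB3A beside RAB3D (42.3% and 36.3%). The RAB3 group was set as RAB3A and RAB3D only. RAB3B was tested too and rose (means of 0.86 and 1.91) but was not part of it. The overlap of RAB3A thus holds for this pair alone, and the count of separate shares for the groups as set.

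**Figure D3:**
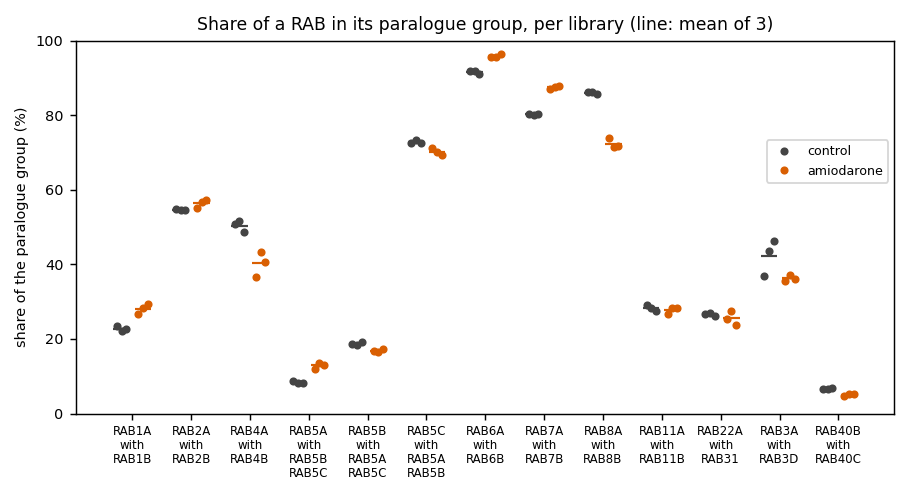
Percentage of each paralogue group's summed level held by 1 member in each of the 6 libraries, with control points in grey and amiodarone points in orange. RAB8A and RAB4A lie lower and RAB7A, RAB1A and RAB5A higher after amiodarone, while RAB11A, RAB22A and RAB3A overlap.

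The machinery that equips RAB proteins with their lipid tails and shuttles them between membrane and cytosol was examined from a list of 14 genes, all tested. Increases were called for 8 and decreases for 4 (85.7% called, beside 78.3% of all tested genes), and the median log2 fold change was 0.31. RABGGTB, the catalytic beta subunit of RAB geranylgeranyl transferase, lay at 32.06, 30.69 and 30.42 in controls and 59.01, 63.75 and 63.64 after amiodarone. It rose 2.00-fold with no overlap (log2 fold change 0.98, SE 0.04, limma adjusted p = 1.93e-09). The alpha subunit RABGGTA rose from 22.44, 22.46 and 22.52 to 28.76, 28.74 and 29.21, that is 1.29-fold (limma adjusted p = 1.45e-06). On this scale of level per length, beta subunit transcript was above alpha subunit transcript in each of the 6 libraries.

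The escort proteins that present RABs to the transferase parted. CHM rose from 4.51 ± 0.197 (SD, n = 3) to 6.57 ± 0.163 (SD, n = 3), whereas its retrogene relative CHML fell from 4.05, 4.18 and 4.05 to 2.32, 2.49 and 2.79 (limma adjusted p = 1.93e-05). GDI2, a GDP dissociation inhibitor, fell from 104.44, 105.38 and 105.08 to 95.04, 100.19 and 96.61 (limma adjusted p = 0.0032). RABAC1, a prenylated RAB acceptor, rose from 49.6 to 61.8.

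**Figure D4:**
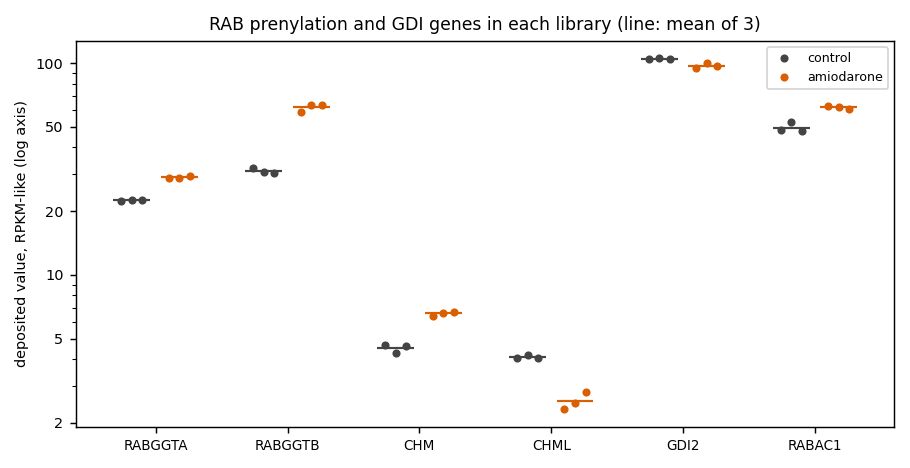
Level of genes of RAB prenylation and membrane extraction in each of the 6 libraries (RPKM-like, log axis), with control points in grey, amiodarone points in orange and lines at the mean of 3. RABGGTB moves from about 31 to 62, while CHML and GDI2 are lower after amiodarone.

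Regulators and effectors included both rising and falling genes, and over all tested genes 33.5% were higher and 44.8% lower. Of 40 tested exchange factors, which load RABs with GTP, 16 rose (40.0%), 16 fell (40.0%) and 8 were not called. DENND2D rose from 5.38, 4.95 and 5.83 to 9.82, 10.23 and 10.43 (limma adjusted p = 2.65e-07), and DENND1C, an exchange factor of RAB35, rose from a mean of 37.4 to 48.7 (limma adjusted p = 2.28e-06). ANKRD27, an exchange factor of RAB21, fell from 31.49, 31.28 and 31.93 to 18.78, 19.62 and 20.61 (limma adjusted p = 5.06e-08). MADD, which acts on RAB3 and RAB27 proteins, fell from a mean of 23.2 to 14.9 (limma adjusted p = 7.44e-08).

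Among 32 tested GTPase-activating proteins, which switch RABs off, 15 rose (46.9%), 10 fell (31.2%) and 7 were not called. The shares over all tested genes were 33.5% higher and 44.8% lower. TBC1D17 rose from 19.70, 20.05 and 19.59 to 39.92, 36.75 and 36.26 (1.90-fold, limma adjusted p = 6.22e-09) and TBC1D2, a regulator of RAB7, rose 1.65-fold from a mean of 3.73 (limma adjusted p = 1.20e-06). TBC1D13, which acts on RAB35, fell from 18.87, 19.66 and 18.85 to 12.30, 11.69 and 11.21 (limma adjusted p = 1.24e-07). TBC1D30 fell from 2.18, 2.11 and 2.42 to 0.58, 0.61 and 0.56 (limma adjusted p = 1.77e-07), and it reached the minimum level only in the controls, the group in which it was high.

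Effectors and tethers, which act downstream of GTP-bound RABs, were 21 higher (42.9%), 14 lower (28.6%) and 14 not called of 49 tested. Of all tested genes, 33.5% were higher and 44.8% lower. VPS8, of the CORVET tether of early endosomes, rose 1.83-fold from 8.39, 8.74 and 8.23 to 15.25, 15.37 and 15.71 (limma adjusted p = 1.99e-08), and the Golgi tether GOLGA5 rose 1.65-fold (limma adjusted p = 3.95e-08). RABEPK fell from a mean of 23.8 to 15.7 (limma adjusted p = 1.25e-06). SYTL1, an effector of RAB27A, fell from 56.56, 61.37 and 59.63 to 45.05, 44.33 and 41.53 (limma adjusted p = 1.94e-06). SYTL3 and EXPH5, further RAB27 effectors outside the rule for named genes, rose from means of 1.06 and 1.04, near the minimum level, to 2.23 and 1.91. UNC13D, of the same list, was not called (means of 44.99 and 43.35, limma adjusted p = 0.195). SYTL2, SYTL4, MLPH and MYRIP were too low to be tested. LRRK2, the kinase that phosphorylates several RABs including RAB8A and RAB10, was outside the rule for named genes and was picked after its values were seen. It lay at 0.37, 0.43 and 0.38 in controls and 1.83, 2.05 and 2.42 after amiodarone (log2 fold change 1.15, limma adjusted p = 2.88e-07), and passed the minimum level only through the treated libraries.

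Other small GTPase families gave a similar mixture, beside 33.5% higher and 44.8% lower of all tested genes. ARF, ARL and SAR genes, of coat assembly and organelle transport, were 11 higher (45.8%), 7 lower (29.2%) and 6 not called of 24 tested. ARF3, a Golgi ARF, fell from 85.31, 83.19 and 85.55 to 66.57, 65.73 and 66.60 (limma adjusted p = 3.14e-07). RAS, RAP and RAL genes were 6 higher (42.9%), 3 lower (21.4%) and 5 not called of 14. Their median log2 fold changes were 0.08 and 0.04, beside 0.19 for the RAB genes, and the differences between families were not tested.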

How the data were processed

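Total RNA of 6 HL-60 samples was sequenced after a strand-preserving mRNA preparation, per the labels' protocols. Tools named in the submitters' processing notes are STAR 2.5.3a, featureCounts and fastp 0.23.4, with the build GRCh38.p12; whether strand was used in counting, and how reads fitting several genes were treated, is not given in the sources used here, so overlapping genes are uncertain. The deposited values behave like RPKM as the authors made them, reads scaled by gene length and depth, but no unit is stated per the file headers and TPM over part of the genes cannot be told apart. No further scaling was applied. A gene was tested where 3 or more libraries had a level of 1 or more. The test was limma 3.58.1 (R 4.3.3; lmFit, then eBayes with a trend) on log2(level + 1), which understates the change of low genes; 4 residual and 6.59 prior degrees of freedom were available, and p-values were adjusted by Benjamini-Hochberg across every tested gene. The method was tested on simulated data in which far fewer genes were changed than were called here. That test does not bear on how many genes were called. Paralogue shares were tested with SciPy 1.17.1 (Python 3.11.15).

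The members, lists and tests were chosen with earlier results of these data known. Genes named were the 10 largest called changes in each direction with separate groups and the member of the highest mean in each role. A preset list of well-known members and up to 2 called genes per direction and pathway list were also named. Of the pathway lists, CHM, RABAC1, SYTL2, SYTL3, SYTL4, EXPH5, UNC13D, MLPH, MYRIP and LRRK2 were named outside this rule. Gene positions and exon overlaps are from GENCODE 29 and promoter letters from RefSeq (GRCh38.p14). Alternatives changed the pseudocount (0.1), the filter (none, or a minimum of 5), the scaling (median of ratios, equal sums) and the minimum fold (1.5), blocked on replicate number, or left out each library. Some genes of the lists are not reported here.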

Additional observations from a re-analysis of the deposited data

How the results depend on the processing

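Of the 37 called RAB genes, 32 kept their call and direction under each of the 12 alternatives that tested them, not counting the 1.5-fold minimum; the exceptions, RAB3D, RAB7A, RAB11B, RAB40B and RAB40C, had log2 fold changes of at most 0.21 in size. The count of called RAB genes was 37 with a pseudocount of 0.1, 40 of 63 with no filter, 31 with a minimum of 5, 37 with either other scaling (26 higher and 11 lower by median of ratios, 22 higher and 15 lower with equal sums), and 36 to 38 when 1 library was left out. Against a 1.5-fold minimum it was 4 (3 higher, 1 lower), and 1352 for all genes (576 higher, 776 lower). Medians of log2 fold change turned sign for lists near 0: with equal sums to -0.02 for early endosome, -0.05 for regulated secretion, -0.01 (-0.005) for GTPase-activating proteins and -0.05 (-0.046) for RAS, RAP and RAL genes; to -0.12 for regulated secretion with a minimum of 5; to 0.01 (0.005) for exchange factors by median of ratios; and to -0.01 (-0.009) for RAS, RAP and RAL genes with no filter. The ratio of summed RAB levels was 1.06 (1.059) by median of ratios and 0.97 (0.967) with equal sums. The median over all genes was -0.06 as deposited, -0.03 by median of ratios and -0.15 (-0.145) with equal sums. The cause of these shifts was not tested. Deviations of same-numbered control and amiodarone libraries had correlations of -0.155, -0.018 and -0.023. With 3 libraries a group, these values cannot decide whether the numbers pair the libraries. With the replicate block 37 RAB genes (24 higher, 13 lower) and 8770 of all genes were called.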

Other observations

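Direction differed with abundance among the RAB genes, a split chosen once the values were known and given here without a test. Of the 10 tested members with the highest mean level (35.5 to 203.6), 3 rose (RAB10, RAB27A and RAB32), 6 fell (RAB5B, RAB5C, RAB7A, RAB8A, RAB11B and RAB44) and RAB1B was not called; their median log2 fold change was -0.10. Of the other 35, 21 rose and 7 fell, and the median was 0.21. Among all 2131 tested genes at or above a mean level of 35.5, 28.9% were higher and 55.7% lower (median -0.12). Among the 9314 below it, 34.5% were higher and 42.3% lower (median -0.04).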
